A study of Mus musculus with 7 samples.

Results

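The genes described here work in and around the endoplasmic reticulum (ER), where the liver folds the proteins it secretes. They were chosen by name, as the rows of the count table whose gene symbol was on a list of 49 symbols, and all 49 were found among the 56691 genes of the table. The list holds 12 sensors and transcription factors of the unfolded protein response (UPR), 11 ER chaperones and cochaperones, 7 disulfide isomerases and oxidases, 8 genes of ER-associated degradation, 7 genes of the translocon and of COPII vesicles, and 4 targets of the transcription factor ATF4.

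Hepatocytes secrete most plasma proteins, so their ER carries a heavy folding load. When unfolded proteins build up in the ER, the sensors IRE1, PERK and ATF6 start the UPR, which slows translation and, through XBP1, ATF4 and cleaved ATF6, raises the transcription of chaperones, folding enzymes and degradation factors. The sensors act mainly through splicing, phosphorylation and cleavage, which counts of whole genes do not measure, and none of these was analysed here.

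Liver RNA was compared between 4 control mice and 3 mice given lipopolysaccharide (LPS), a cell wall component of Gram-negative bacteria that is used to model septic acute liver injury. All were male C57BL/6J mice, an inbred strain, obtained at 8 weeks of age and housed for 2 weeks. LPS was injected into the peritoneal cavity at 10 mg/kg, and the livers were taken 24 h later. What the control mice received is not stated beyond the word control. The p-values measure the spread between these 7 mice.

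The libraries were made from polyadenylated RNA and kept the strand of the transcript. Control libraries held 14991022 to 18584140 counts and LPS libraries 17095607 to 20500391. Mitochondrially encoded genes took 23.7%, 14.6%, 7.48% and 8.96% of the counts in control replicates 1 to 4, and 6.45%, 3.83% and 3.94% in LPS replicates 1 to 3. LPS replicates 2 and 3 were the closest pair of samples, with an SD of 0.101 in their log2 ratio over 1729 abundant genes. The other pairs within a group had SDs between 0.292 and 0.575. Control replicates 1 and 2 (0.299) and control replicates 3 and 4 (0.292) were closer than the other control pairs, at 0.371 to 0.575. The p-values treat LPS replicates 2 and 3 as independent mice, and would understate the spread among LPS mice if they were not. Levels below are in CPM, which are counts scaled to a common library size after correction by edgeR's TMM factors. Values in control mice are listed from replicate 1 to 4 and those in LPS mice from replicate 1 to 3.

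All 49 genes passed the filter on low counts, which asks for a minimum level in at least 3 mice, and each reached that level in at least 3 mice of each group. By edgeR's quasi-likelihood test, with a gene called at an adjusted p below 0.05 over the 13683 genes tested, 30 of the 49 genes were higher in LPS mice, 1 was lower and 18 did not pass the threshold. The number lower was 2 without control replicate 1 and 0 without control replicate 3 or any 1 of the LPS mice. With LPS replicates 2 and 3 summed into 1 sample, 27 of the 49 genes were higher and 0 were lower. Over all genes tested, 13.3% were called higher and 13% were called lower. The median log2 fold change of the 49 genes was 0.70, and that of all genes tested was -0.01. With a log2 fold change above 1 asked for as well, 13 of the 49 genes were higher and 0 were lower, against 7.81% and 7.31% of all genes tested. At an unadjusted p below 0.05 in edgeR only Ern1 and Sar1b of the 49 genes were lower, and DESeq2 called these 2 lower without a fold threshold, so that each role count of 0 lower below, other than that of the translocon and COPII genes, was also 0 by both of these measures. Every LPS mouse was above every control mouse in 31 of the 49 genes, compared with 18.1% of all genes tested. When the counts were scaled by their totals alone, 27 of the 49 genes were higher and 2 were lower, and the split over all genes tested moved from 1825 higher and 1773 lower to 1350 higher and 2057 lower. In bulk liver, fewer cells of a type and less RNA per cell cannot be told apart, and this holds for each gene below.

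By role, the share of genes called higher ran from 10 of 11 to 1 of 4. Among the chaperones 10 of 11 were called higher, with a median log2 fold change of 1.27. Among the disulfide isomerases and oxidases it was 6 of 7, with a median of 0.88. The translocon and COPII genes followed with 5 of 7 and a median of 0.53. ER-associated degradation had 4 of 8 higher with a median of 0.48, the UPR sensors and factors 4 of 12 with a median of 0.51, and the ATF4 targets 1 of 4 with a median of 0.28. The count was 3 for the translocon and COPII genes without LPS replicate 2, 2 for the UPR sensors and factors without LPS replicate 3, and 2 for the ATF4 targets without control replicate 3. Differences between the roles were not tested.

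**Figure D1:**
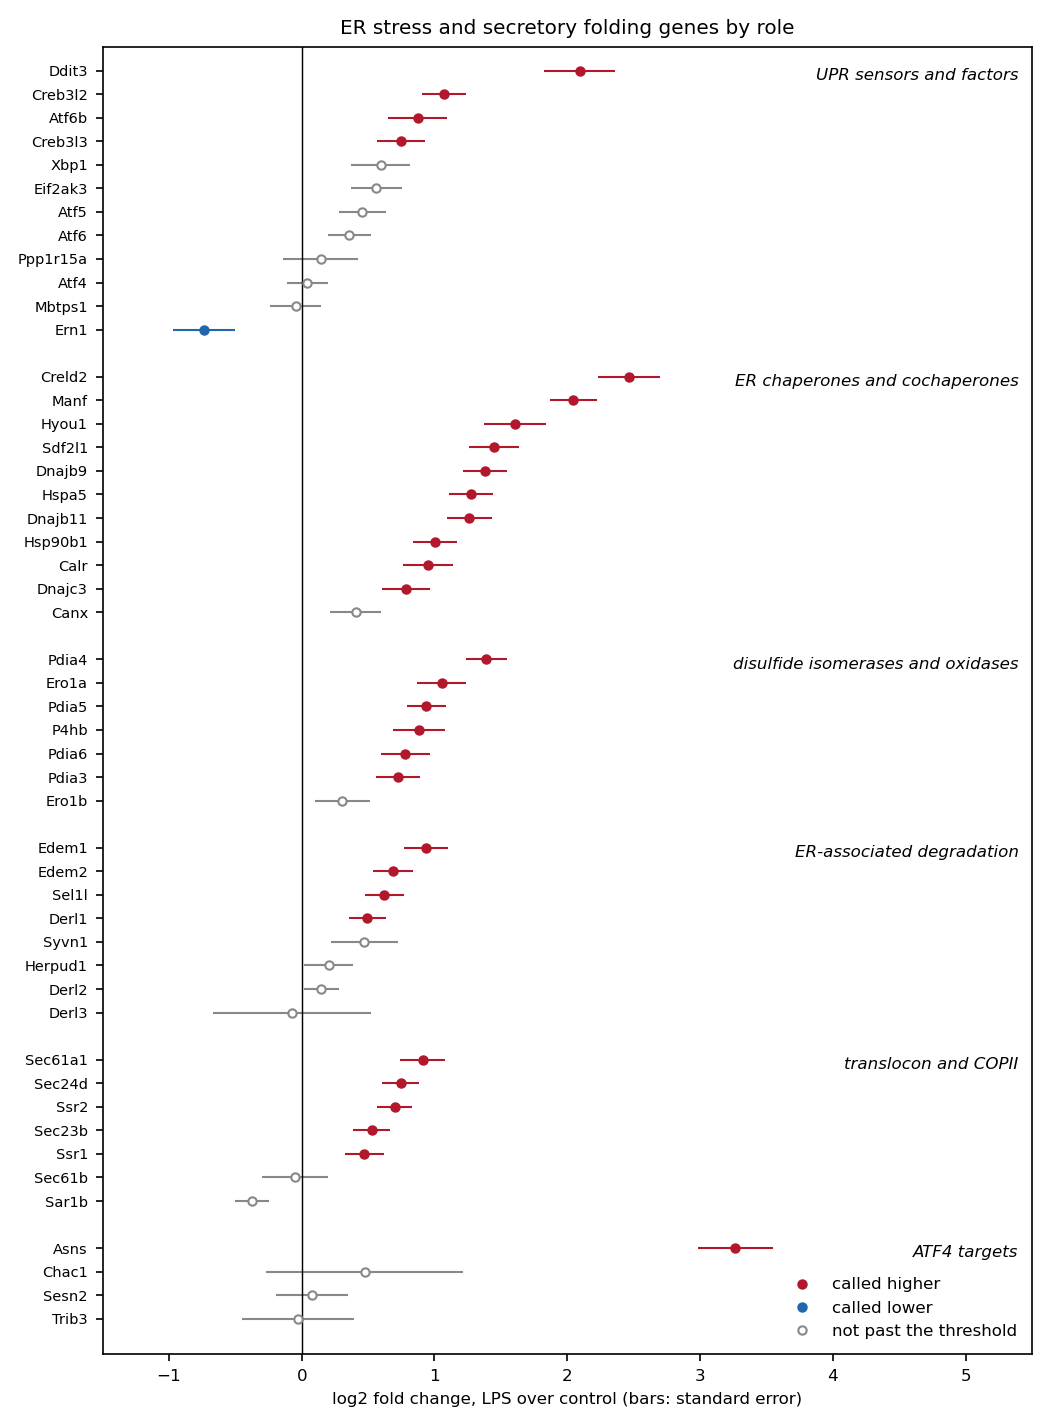
Log2 fold change of LPS over control (horizontal axis, no unit) for each of the 49 genes, grouped by role, with bars of 1 standard error. Filled points passed the edgeR threshold. The chaperones lie furthest to the right as a group, with a median of 1.27, and Asns has the largest value, at 3.27.

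The UPR sensors and factors had 4 genes higher (2 without LPS replicate 3), 1 lower and 7 not called, with a median log2 fold change of 0.51. Ern1, which encodes the sensor IRE1 that splices Xbp1 mRNA, was at 50.9, 34.9, 77.4 and 46.7 CPM in control mice and 32.4, 25.8 and 36.4 CPM in LPS mice. Control replicate 3 was far above the other control mice, and LPS replicate 3 was above control replicate 2, so the groups overlapped. Ern1 fell by 0.73 on the log2 scale (SE 0.24, edgeR adjusted p = 0.0364), and it was the only gene of the 49 called lower by edgeR. The call was lost without control replicate 3 (log2 fold change -0.49, edgeR adjusted p = 0.0617), without LPS replicate 1 (-0.75, adjusted p = 0.0773), without LPS replicate 2 (-0.61, adjusted p = 0.16), without LPS replicate 3 (-0.84, adjusted p = 0.061) and with LPS replicates 2 and 3 summed (-0.71, adjusted p = 0.1).

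Eif2ak3 encodes PERK, the sensor that phosphorylates the translation factor eIF2α. Its level was 14.5, 8.71, 11.5 and 13.2 CPM in control mice and 15.2, 18.3 and 19.7 CPM in LPS mice. The LPS mice were all above the control mice, by a small margin between LPS replicate 1 and control replicate 1. The log2 fold change was 0.56 (SE 0.20) and the edgeR adjusted p was 0.0504, just past the threshold on the side not called. It was called with RLE factors (adjusted p = 0.0484), with no filter on low counts (adjusted p = 0.0344), without control replicate 1 (adjusted p = 0.0289) and without LPS replicate 1 (adjusted p = 0.045).

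For Atf6, the sensor that is cleaved in the Golgi to release a transcription factor, the level was 31.8, 38.1, 50.7 and 39.3 CPM in control mice and 47.8, 52.5 and 53.3 CPM in LPS mice. Control replicate 3 lay within the LPS range and the other control mice below it. The log2 fold change of 0.36 (SE 0.16) did not pass the threshold (edgeR adjusted p = 0.128), but did without control replicate 3 (0.49, edgeR adjusted p = 0.0222). Its paralog Atf6b stood at 6.37, 7.19, 10.8 and 6.00 CPM in control mice and 14.0, 12.3 and 15.3 CPM in LPS mice. Here the groups did not overlap, and the rise was 0.87 on the log2 scale (SE 0.22, edgeR adjusted p = 0.0122). Without LPS replicate 3 the rise of Atf6b was 0.80 and no longer called (edgeR adjusted p = 0.0614).

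Xbp1 encodes the transcription factor whose mRNA IRE1 splices. Its level was 145, 167, 288 and 172 CPM in control mice and 241, 332 and 301 CPM in LPS mice. Control replicate 3 was above LPS replicate 1, and the other control mice were below all LPS mice. The log2 fold change was 0.60 (SE 0.22, edgeR adjusted p = 0.0649), which was not called by edgeR. DESeq2 called it (adjusted p = 0.0349), as did edgeR with no filter on low counts (adjusted p = 0.00456) and without control replicate 3 (0.85, adjusted p = 0.0019).

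Atf4, the factor whose translation rises when PERK is active, was at 101, 90.6, 93.3 and 69.0 CPM in control mice and 82.5, 95.0 and 95.5 CPM in LPS mice. The groups overlapped almost completely, and the log2 fold change was 0.04 (SE 0.15, edgeR adjusted p = 0.878). Its relative Atf5 was at 238, 196, 206 and 162 CPM in control mice and 212, 318 and 296 CPM in LPS mice. LPS replicate 1 lay between control replicates 3 and 1, and the other LPS mice were above all control mice. The log2 fold change of Atf5 was 0.46 (SE 0.18), with an adjusted p of 0.0775 in edgeR and 0.049 in DESeq2. In edgeR it was called with no filter on low counts (adjusted p = 0.0428), without control replicate 1 (adjusted p = 0.0397) and without LPS replicate 1 (adjusted p = 0.0235).

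Ddit3 encodes CHOP, a factor induced downstream of ATF4 and linked to cell death under lasting ER stress. It was at 11.7, 5.36, 8.13 and 4.74 CPM in control mice and 29.4, 36.9 and 28.8 CPM in LPS mice, so that the lowest LPS mouse was well above the highest control mouse. The rise was 2.09 on the log2 scale (SE 0.27, edgeR adjusted p = 9.08e-05), and it was called in each of the 7 fits without 1 mouse. Creb3l2, a membrane-bound factor cleaved in the Golgi as ATF6 is, was at 14.6, 11.2, 14.0 and 16.2 CPM in control mice and 26.2, 33.0 and 29.3 CPM in LPS mice. It rose by 1.07 (SE 0.16, edgeR adjusted p = 4.01e-04) with no overlap between groups. The liver-enriched relative Creb3l3, also called CREBH and known for driving acute phase and lipid genes, rose by 0.75 (SE 0.18, edgeR adjusted p = 0.00782), and the call was lost without LPS replicate 3 (0.64, adjusted p = 0.0549) and with LPS replicates 2 and 3 summed (0.66, adjusted p = 0.0507). Ppp1r15a, which encodes the phosphatase subunit GADD34 that reverses the eIF2α mark, had a log2 fold change of 0.14 (SE 0.28), and Mbtps1, a protease that cleaves ATF6, had one of -0.04 (SE 0.19). Neither was called, and their groups overlapped.

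**Figure D2:**
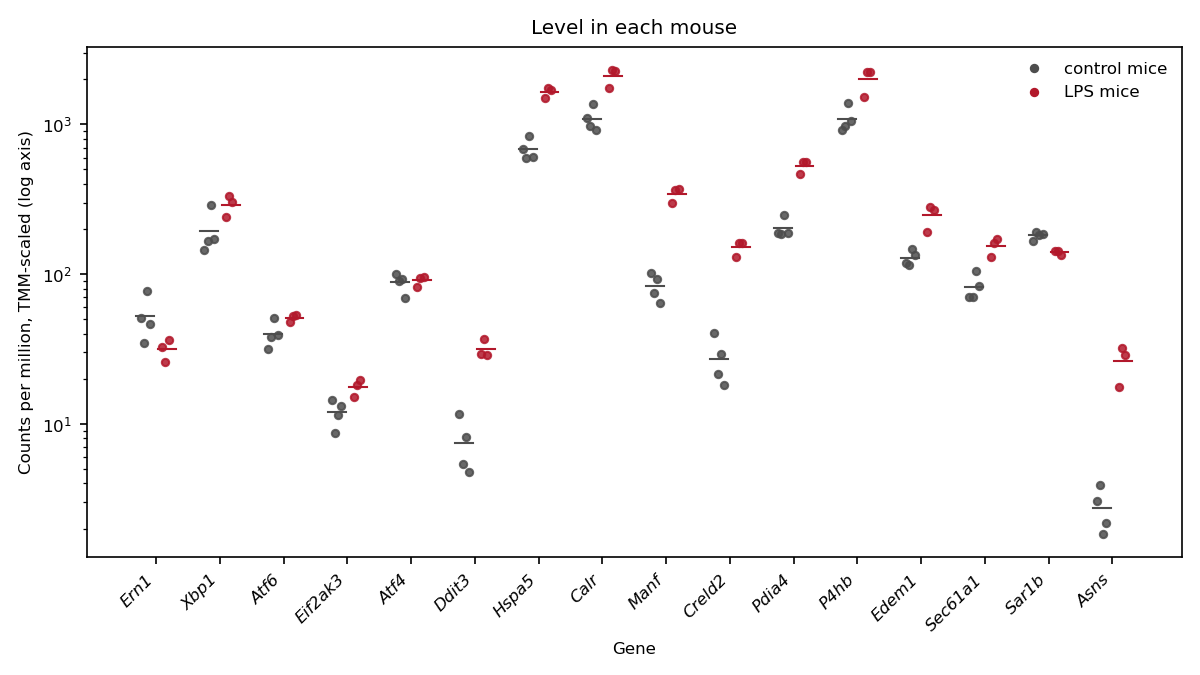
CPM (vertical log axis) of 16 of the genes in each control mouse (grey) and each LPS mouse (red), with a line at the group mean. Points of Creld2, Manf, Ddit3 and Asns are widely separated between groups, those of Atf4 overlap, and Sar1b is lower in every LPS mouse, at 134 to 144 CPM, than in any control mouse, at 166 to 191 CPM.

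Of the 11 chaperones and cochaperones, 10 were called higher, 0 were lower, and 8 of the 10 had a log2 fold change above 1. Hspa5 encodes BiP, the main ER chaperone, which also holds the UPR sensors inactive. Its level was 687, 596, 836 and 608 CPM in control mice and 1499.6, 1742.5 and 1699.7 CPM in LPS mice. The LPS mice were all far above the highest control mouse, which was replicate 3, and the rise was 1.27 on the log2 scale (SE 0.17, edgeR adjusted p = 1.12e-04).

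Creld2, a secreted ER stress-inducible protein, was at 40.4, 21.6, 29.1 and 18.2 CPM in control mice and 131, 161 and 161 CPM in LPS mice. This was the largest rise among the chaperones, at 2.47 (SE 0.23, edgeR adjusted p = 7.23e-06). Manf, an ER protein that binds BiP, was at 103, 75.1, 92.8 and 64.3 CPM in control mice and 300.4, 363 and 373 CPM in LPS mice. Its rise of 2.05 had the smaller error (SE 0.18, edgeR adjusted p = 3.23e-06). In both genes control replicate 1 was the highest control mouse and LPS replicate 1 the lowest LPS mouse, with a wide gap between them.

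Hyou1, an HSP70-type chaperone and exchange factor of BiP, was at 83.9, 50.7, 119 and 68.5 CPM in control mice and 219, 254 and 263 CPM in LPS mice. The control mice spread widely, with replicate 3 highest and replicate 2 lowest, but stayed below the LPS mice. Hyou1 rose by 1.61 (SE 0.23, edgeR adjusted p = 2.50e-04). Calr encodes calreticulin, a lectin chaperone of glycoproteins, and was the most abundant of the chaperones, at 1103, 971, 1376 and 912 CPM in control mice and 1762, 2302 and 2259.9 CPM in LPS mice. Calr rose by 0.95 (SE 0.18, edgeR adjusted p = 0.00223), and the distance between control replicate 3 and LPS replicate 1 was smaller than for Hspa5.

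The other called chaperones rose by between 0.78 (Dnajc3, a BiP cochaperone) and 1.45 (Sdf2l1, which works with BiP and Dnajb11), with edgeR adjusted p of 0.00671 and 1.17e-04. Between them lay Hsp90b1, the ER form of HSP90, at 1.00, Dnajb11, a BiP cochaperone, at 1.26, and Dnajb9, a cochaperone that returns BiP to IRE1, at 1.38. Canx, the membrane-bound lectin chaperone calnexin, was not called. Its log2 fold change was 0.41 (SE 0.19, edgeR adjusted p = 0.138), with control replicate 3 at 424 CPM inside the LPS range of 369 to 454 CPM, and without that mouse the value was 0.57 and called (edgeR adjusted p = 0.0231). The summed level of the 11 genes was 3647 ± 577 CPM (SD, n = 4) in control mice and 7690.5 ± 893 CPM (SD, n = 3) in LPS mice, a ratio of 2.11.

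Disulfide bonds are formed in the ER by protein disulfide isomerases, which are recharged by ERO1 oxidases, and 6 of the 7 genes of this kind were called higher, 0 lower. Pdia4, an isomerase that contains several thioredoxin-type domains, was at 189, 186, 246 and 188 CPM in control mice and 463, 564 and 565 CPM in LPS mice. Control replicates 1, 2 and 4 were nearly equal and replicate 3 stood above them, still far below the LPS mice. The rise of Pdia4 was 1.39 (SE 0.16, edgeR adjusted p = 3.08e-05). The oxidase gene Ero1a was at 11.5, 10.8, 17.7 and 13.9 CPM in control mice and 30.5, 28.3 and 25.2 CPM in LPS mice, and it rose by 1.05 (SE 0.19, edgeR adjusted p = 0.00109). In Ero1a, LPS replicate 1 was the highest LPS mouse, and no control mouse reached the LPS range.

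For the isomerase gene Pdia5 the levels were 58.1, 46.8, 55.3 and 61.6 CPM in control mice and 91.8, 117 and 111 CPM in LPS mice, a rise of 0.94 (SE 0.15, edgeR adjusted p = 4.60e-04). P4hb, which encodes the classical protein disulfide isomerase and a subunit of prolyl 4-hydroxylase, was the most abundant gene of the group, at 915, 979, 1386 and 1055 CPM in control mice and 1529.9, 2235.5 and 2233 CPM in LPS mice. P4hb rose by 0.88 (SE 0.20, edgeR adjusted p = 0.00543), although control replicate 3 came close to LPS replicate 1. Pdia3, which works with calreticulin and calnexin, rose by 0.72 (edgeR adjusted p = 0.00615) and Pdia6, which also attenuates IRE1, by 0.78 (edgeR adjusted p = 0.00824). The oxidase gene Ero1b was not called, with a log2 fold change of 0.31 (SE 0.20, edgeR adjusted p = 0.305). In Ero1b, control replicate 3, at 105 CPM, was above every LPS mouse, and without that mouse the value was 0.55 and called (edgeR adjusted p = 0.00885). The 7 genes summed to 2335 ± 395 CPM (SD, n = 4) in control mice and 4271 ± 676 CPM (SD, n = 3) in LPS mice.

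ER-associated degradation moves misfolded proteins to the cytosol for the proteasome, and 4 of its 8 genes were called higher and 0 lower, with a median log2 fold change of 0.48 and 0 past a log2 fold change of 1. DESeq2 also called 4 higher. Edem1, which helps to pick glycoproteins for degradation, was at 119, 116, 147 and 134 CPM in control mice and 192, 280.4 and 267 CPM in LPS mice. It rose by 0.94 (SE 0.16, edgeR adjusted p = 0.001), with LPS replicate 1 clearly below the other LPS mice. Edem2, a mannosidase that starts the trimming of glycans, was at 57.0, 52.9, 48.0 and 40.9 CPM in control mice and 70.4, 82.8 and 87.0 CPM in LPS mice and rose by 0.69 (SE 0.15, edgeR adjusted p = 0.0048). Sel1l, the adaptor of the HRD1 ubiquitin ligase, was at 100.3, 91.5, 121 and 92.8 CPM in control mice and 146, 161 and 162 CPM in LPS mice, and its rise was 0.62 (SE 0.14, edgeR adjusted p = 0.00651). In Edem1, Edem2 and Sel1l the groups did not overlap.

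Herpud1, an ER membrane protein that assembles the HRD1 complex, had the highest mean CPM of the 8 in control mice, at 151, 188, 148 and 247 CPM in control mice and 238, 193 and 203 CPM in LPS mice, where the mean of Edem1 was higher. Control replicate 4 was the highest of all 7 mice for Herpud1, and the log2 fold change of 0.20 (SE 0.19) was not called (edgeR adjusted p = 0.471). Derl1, a channel component, rose by 0.50 (SE 0.14, edgeR adjusted p = 0.0183). The call of Derl1 was lost without LPS replicate 2 (0.46, edgeR adjusted p = 0.0955), without LPS replicate 3 (0.44, adjusted p = 0.102), with total counts alone (0.37, adjusted p = 0.101) and with LPS replicates 2 and 3 summed (0.46, adjusted p = 0.0943). Its relatives Derl2 and Derl3 had log2 fold changes of 0.15 (SE 0.13) and -0.07 (SE 0.59) and were not called. Syvn1, which encodes the ligase HRD1 itself, had one of 0.47 (SE 0.25, edgeR adjusted p = 0.2). Control replicate 1, at 72.0 CPM, was above all LPS mice in Syvn1, and the gene was called without that mouse (0.82, edgeR adjusted p = 0.00148) and with no filter on low counts (0.48, adjusted p = 0.0324).

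Secretory proteins enter the ER through the Sec61 translocon and leave it in COPII vesicles, and 5 of 7 genes of these steps were called higher and 0 lower by edgeR. DESeq2 called the same number higher and 1 lower, and edgeR called 3 higher without LPS replicate 2 and 1 lower without control replicate 1. Sec61a1, the channel subunit, was at 70.3, 70.6, 104 and 83.6 CPM in control mice and 129.7, 162 and 172 CPM in LPS mice. It rose by 0.91 (SE 0.17, edgeR adjusted p = 0.00177), and control replicate 3 was the nearest to the LPS mice. Sec24d, a COPII coat subunit that binds cargo, was at 48.0, 37.9, 43.1 and 43.3 CPM in control mice and 77.3, 76.3 and 62.8 CPM in LPS mice, a rise of 0.74 (SE 0.14, edgeR adjusted p = 0.00181). Ssr2, a subunit of the translocon-associated protein complex, was at 45.1, 53.2, 53.0 and 54.4 CPM in control mice and 76.4, 84.5 and 90.0 CPM in LPS mice and rose by 0.70 (SE 0.13, edgeR adjusted p = 0.00198). Both groups were tight in Ssr2, apart from a lower control replicate 1.

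The COPII coat gene Sec23b rose by 0.53 (SE 0.14, edgeR adjusted p = 0.0137), and the call was lost without LPS replicate 2 (0.45, adjusted p = 0.0882) and with total counts alone (0.42, adjusted p = 0.0641). Ssr1, a further subunit of the translocon-associated complex, rose by 0.47 (SE 0.15, edgeR adjusted p = 0.0336). Of the 7 fits without 1 mouse 3 called it, the fewest among the 30 rises. The edgeR adjusted p was 0.0787 without control replicate 2, 0.0923 without control replicate 4, 0.125 without LPS replicate 2 and 0.157 without LPS replicate 3, and it was 0.0974 with total counts alone and 0.133 with LPS replicates 2 and 3 summed. Sar1b, the GTPase that starts COPII budding and is needed for the export of lipoprotein particles, went the other way, at 166, 191, 183 and 185 CPM in control mice and 142, 144 and 134 CPM in LPS mice. Every LPS mouse was below every control mouse, and the log2 fold change was -0.37 (SE 0.13), with an adjusted p of 0.0519 in edgeR, not called, and of 0.0339 in DESeq2. It was also called with total counts alone (adjusted p = 0.0416), with at least 10 counts in every sample (adjusted p = 0.0332), with mitochondrial genes left out (adjusted p = 0.0422) and without control replicate 1 (adjusted p = 0.0332). Sec61b, the small translocon subunit, was not called, with a log2 fold change of -0.05 (SE 0.25).

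Among the 4 ATF4 targets, 1 was called higher and 0 lower by edgeR and by DESeq2, and 2 were higher in edgeR without control replicate 3. Asns, asparagine synthetase, was at 3.04, 3.91, 1.83 and 2.18 CPM in control mice and 17.7, 32.2 and 29.0 CPM in LPS mice. This was the largest rise of the 49 genes, at 3.27 (SE 0.28, edgeR adjusted p = 3.05e-06), and the lowest LPS mouse was several times above the highest control mouse. Trib3, a pseudokinase that restrains ATF4, had a log2 fold change of -0.03 (SE 0.42) and Sesn2, a sensor of amino acid and oxidative stress, one of 0.08 (SE 0.27). Chac1, which degrades glutathione, was at 0.354, 0.694, 5.01 and 0.581 CPM in control mice and 2.30, 2.19 and 2.43 CPM in LPS mice. Control replicate 3 was above every LPS mouse and the other control mice were below them, so the log2 fold change of Chac1 was 0.47 with an SE of 0.74 (edgeR adjusted p = 0.694), and it was 2.06 without control replicate 3 (edgeR adjusted p = 0.00931). All 3 uncalled genes were low, below 6 CPM in every mouse.

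**Figure D3:**
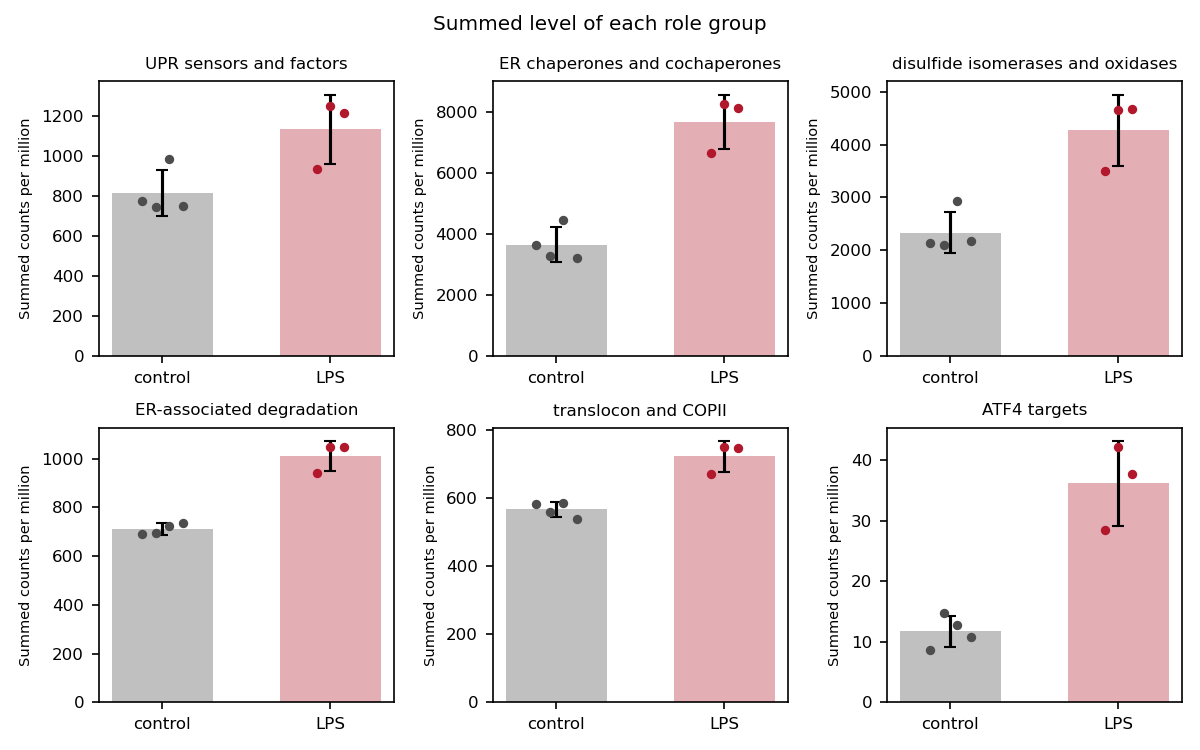
Summed CPM of each role group (vertical axis from 0) in control and LPS mice, with bars at the mean, error bars of 1 SD and a point for each mouse. The chaperones rise from a mean of 3647 to 7690.5 CPM, and in the UPR sensors and factors control replicate 3, at 986 CPM, is above LPS replicate 1, at 937 CPM.

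In many of the genes the same mouse was at the edge of its group. LPS replicate 1 was the lowest LPS mouse in 25 of the 30 genes called higher, and control replicate 3 was the highest control mouse in 15 of the 30. These places were taken on TMM-scaled levels, and the order of mice within a group can change with the scaling. The TMM factors were 0.944, 1.05, 1.04 and 1.11 in control replicates 1 to 4 and 1.06, 0.909 and 0.902 in LPS replicates 1 to 3. How often each mouse held these places over all genes tested was not counted. The summed level of all 49 genes was 7840, 7381, 9697 and 7426 CPM in control replicates 1 to 4 and 12728, 16010 and 15860 CPM in LPS replicates 1 to 3. The sums did not overlap between groups. The share of mitochondrial counts did not overlap between groups either, at 6.45% or less in LPS mice and 7.48% or more in control mice. With mitochondrial genes left out of the counts 30 of the 49 genes were higher and 2 were lower.

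Per kilobase of exon, a scale on which genes can be compared, the 49 genes spanned a wide range of levels in control mice. Lengths came from GENCODE M21, which is on another genome build than the counts, so these levels are approximate. The lowest control means were those of Asns, at 1.00 CPM per kb, and Chac1, at 1.01, and without control replicate 3 that of Chac1 was 0.332 CPM per kb and the lowest of the 49. P4hb and Calr had the highest control means, both 379 CPM per kb, followed by Hsp90b1 at 241, Pdia3 at 201 and Hspa5 at 161 CPM per kb. In LPS mice the highest means were those of Calr at 732 and P4hb at 699 CPM per kb, then Hsp90b1 at 484 and Hspa5 at 390 CPM per kb, which was above Pdia3 at 332. Asns reached 9.62 CPM per kb. Calr and P4hb had the highest means of their roles in both groups by CPM and per kilobase, and Herpud1 had the highest of its role per kilobase in both groups but by CPM in control mice only.

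Other genes of the same steps were counted from lists that cover what the 49 genes leave out. Of 189 such genes 178 were tested, and 54 were called higher (30.3%) and 5 lower, with a median log2 fold change of 0.30. Over all genes tested 13.3% were called higher and 13% lower, and these shares stand beside each list below. Without LPS replicate 2 the numbers were 34 and 3. The oligosaccharyltransferase list, whose enzymes attach glycans to new proteins, had 8 of 16 higher and 0 lower, and 5 were higher without control replicate 2, LPS replicate 2 or LPS replicate 3 and with total counts alone. Its largest rises were those of the subunits Ostc, at 1.18, and Stt3b, at 0.91. For COPII and ER to Golgi transport it was 13 of 32 higher and 0 lower, led by the cargo receptors Tmed3, at 1.30, and Tmed9, at 1.14. In the list of translocon and signal peptide processing, 8 of 21 were higher and 0 lower, led by the signal peptidase subunit Spcs2, at 1.41, and Tram2, at 1.03. There 5 were higher without LPS replicate 2 or LPS replicate 3 and with total counts alone. DESeq2 called 57 of the related genes higher and 5 lower. In the lists of related genes with 0 lower, 0 were also lower by DESeq2 and at an unadjusted p below 0.05 in edgeR.

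Among other disulfide enzymes 6 of 16 were higher (37.5%, beside 13.3% of all genes tested) and 1 lower, and 3 were higher without LPS replicate 2. The sulfhydryl oxidases Qsox1, at 1.46, and Qsox2, at 1.30, rose most, and the ER peroxiredoxin Prdx4 fell by 1.05 on the log2 scale (edgeR adjusted p = 2.71e-04). The other chaperones and glycan quality control genes had 5 of 21 higher (23.8%) and 0 lower. They were led by the BiP-associated reductase Dnajc10, at 1.17, and the HSP70 relative Hspa13, at 1.06. Of these genes 3 were higher without LPS replicate 2 or LPS replicate 3 and with total counts alone, and 1 was lower without control replicate 4. For other ER-associated degradation the counts were 4 of 24 higher (16.7%) and 1 lower, beside 13.3% and 13% of all genes tested, and the number lower was 2 without LPS replicate 1 and with total counts alone and 0 without LPS replicate 2. There the selenoprotein Selenos, at 0.98, and the ubiquitin-conjugating enzyme Ube2g2, at 0.89, rose, and the ubiquitin ligase Rnf5 fell by 0.62.

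Among other UPR and integrated stress response factors 5 of 21 were higher (23.8%, beside 13.3% of all genes tested) and 1 lower. There 3 were higher without LPS replicate 2 or LPS replicate 3 and with total counts alone. The stress-induced regulator Nupr1, at 2.41, and the ER membrane protein Wfs1, at 1.28, rose most, and Nfyb, a subunit of the factor NF-Y that binds CCAAT boxes, fell by 0.65 (edgeR adjusted p = 0.00447). Other ATF4 targets and amino acid response genes had 5 of 27 higher (18.5%, beside 13.3% of all genes tested) and 2 lower, with a median log2 fold change of 0.04. Without LPS replicate 2 there were 3 higher and 1 lower, and without control replicate 2 there were 3 higher. Ddit4, an inhibitor of mTORC1, rose by 2.73 (edgeR adjusted p = 6.90e-04) and the tryptophan tRNA synthetase Wars1 by 1.20. The cysteine tRNA synthetase Cars1 fell by 1.21 (edgeR adjusted p = 1.33e-04) and Shmt2, a mitochondrial enzyme of serine metabolism, by 0.61. So within this list the largest changes ran in both directions.

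Promoter sequence is a feature that the choice of genes did not use, although the ER stress response element (ERSE) was first described in promoters of ER chaperones. Windows from 250 bases before to 50 bases after the transcription start, from RefSeq on GRCm38.p6, were found for 43 of the 49 genes. ERSE was searched as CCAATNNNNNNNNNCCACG on both strands. It was in 10 of the 43 windows (23.3%), in 37 of 27025 genes of the table (0.137%), which include these 10, and in 0 of the 149 related genes with a window. Of the 10 genes with ERSE, 6 were called higher in LPS mice, and of the 33 with a window and no match, 19 were. The core TGACGTG was in 2 of 43 windows (4.65%), against 2.22% of all genes and 10.1% of the related genes. The amino acid response element, TGATGNAA, was in 4 of 43 (9.3%), those of Asns, Chac1, Herpud1 and Trib3, against 4.51% of all genes and 7.38% of the related genes. No matches of different motifs overlapped in the windows of the 49 genes, and a match describes letters only, not binding.

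The 250 bases before the start are shown for 4 called genes with ERSE and for Asns, which had the largest rise and a match to the amino acid response element. Each runs 5′ to 3′ along the gene's strand, with matches to any of these motifs in capitals. Hspa5 (chr2:34771840-34772089, plus strand) has TGACGTG from -157 to -151 and ERSE from -65 to -47, counted from the start. Hsp90b1 (chr10:86705445-86705694, minus strand) has ERSE from -212 to -194 and, in the reverse direction, from -107 to -89. Calr (chr8:84846932-84847181, minus strand) has it in reverse from -162 to -144, and Creld2 (chr15:88819396-88819645, plus strand) in reverse from -126 to -108. In Asns (chr6:7693210-7693459, minus strand) the amino acid response element lies from -23 to -16.
Hspa5: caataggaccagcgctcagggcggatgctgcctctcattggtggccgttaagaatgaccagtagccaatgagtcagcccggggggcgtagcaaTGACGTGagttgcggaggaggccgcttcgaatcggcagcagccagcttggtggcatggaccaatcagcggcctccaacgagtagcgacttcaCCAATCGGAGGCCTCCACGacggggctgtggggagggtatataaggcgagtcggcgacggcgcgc
Hsp90b1: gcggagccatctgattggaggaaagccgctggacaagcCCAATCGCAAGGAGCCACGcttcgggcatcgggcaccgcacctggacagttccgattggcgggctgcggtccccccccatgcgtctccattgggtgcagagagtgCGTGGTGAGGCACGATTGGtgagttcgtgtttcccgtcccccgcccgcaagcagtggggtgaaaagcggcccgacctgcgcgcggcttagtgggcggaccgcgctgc
Calr: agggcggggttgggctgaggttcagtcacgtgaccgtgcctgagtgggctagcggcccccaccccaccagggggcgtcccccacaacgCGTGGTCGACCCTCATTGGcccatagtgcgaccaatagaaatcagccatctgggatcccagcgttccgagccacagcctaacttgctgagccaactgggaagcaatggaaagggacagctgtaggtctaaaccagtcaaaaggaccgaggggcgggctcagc
Creld2: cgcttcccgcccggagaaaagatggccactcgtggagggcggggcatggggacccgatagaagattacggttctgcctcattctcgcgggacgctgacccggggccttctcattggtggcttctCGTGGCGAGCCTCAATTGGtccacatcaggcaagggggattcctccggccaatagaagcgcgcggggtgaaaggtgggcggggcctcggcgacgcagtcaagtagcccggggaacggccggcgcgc
Asns: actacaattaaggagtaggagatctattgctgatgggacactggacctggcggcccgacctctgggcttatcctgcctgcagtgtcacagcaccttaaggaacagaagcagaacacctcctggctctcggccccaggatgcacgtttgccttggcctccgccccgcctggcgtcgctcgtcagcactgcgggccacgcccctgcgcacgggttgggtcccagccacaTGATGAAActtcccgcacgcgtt

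For the other 6 genes with ERSE the match is shown in capitals with 20 bases on each side, again along the gene's strand. Dnajc3 (chr14:118937807-118937865, plus strand) and Pdia6 (chr12:17266471-17266529, plus strand) were called higher. Canx (chr11:50325780-50325838, minus strand), Derl3 (chr10:75893222-75893280, plus strand), Ero1b (chr13:12565662-12565720, plus strand) and Syvn1 (chr19:6046512-6046570, plus strand) were not called. The letters outside the fixed bases differ from gene to gene in both sets.
Dnajc3: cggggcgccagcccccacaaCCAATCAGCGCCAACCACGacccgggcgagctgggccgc
Pdia6: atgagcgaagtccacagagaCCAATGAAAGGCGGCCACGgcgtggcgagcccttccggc
Canx: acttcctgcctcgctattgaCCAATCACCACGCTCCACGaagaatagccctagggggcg
Derl3: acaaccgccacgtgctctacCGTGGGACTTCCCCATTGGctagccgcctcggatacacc
Ero1b: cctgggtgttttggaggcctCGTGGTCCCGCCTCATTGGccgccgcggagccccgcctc
Syvn1: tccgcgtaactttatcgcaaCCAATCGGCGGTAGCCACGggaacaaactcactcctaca

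Markers of liver cell types were measured beside these genes. Their counts of calls stand beside 13.3% higher and 13% lower over all genes tested. The 12 hepatocyte markers summed to 73016, 75460, 100800.0 and 87157 CPM in control mice and 51293, 56811 and 56824 CPM in LPS mice, with 3 called higher and 4 lower, and Alb made up 52.2% of the sum. Without LPS replicate 2, without LPS replicate 3 and with LPS replicates 2 and 3 summed, 2 hepatocyte markers were lower. The marker counts under other settings were made after the data were seen. Of the 11 B and plasma cell markers 8 were tested, 1 was higher and 2 were lower, and Sdc1 was 95.5% of the sum. Of the 8 tested, 5 passed the filter on low counts through the control mice alone. The number lower was 1 without control replicate 1, control replicate 2 or LPS replicate 2. The sum was 97.4, 116, 122 and 135 CPM in control mice and 211, 404 and 418 CPM in LPS mice. Only Sdc1 of the 8 tested had a log2 fold change above 0, at 1.70, and the median of the 8 was -1.72. Tnfrsf17 had 0 counts in every mouse, and Jchain and Mzb1 stayed below 3 CPM.

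The neutrophil markers summed to 5.24, 4.54, 2.02 and 2.95 CPM in control mice and 217, 159.9 and 160.1 CPM in LPS mice, and 8 of the 12 were tested and higher. Of these 8, only S100a9 and Csf3r reached the level of the filter on low counts in at least 3 control mice, so the other 6 passed through the LPS mice, where they were high, and the count of 8 is given as a description. S100a9 had the largest share in every LPS mouse and Csf3r in every control mouse, and 3 of the 12 genes had 0 counts in all control mice. The macrophage and monocyte markers, with 4 of 10 higher and 1 lower, summed to 138, 202, 187 and 123 CPM in control mice and 697, 185 and 188 CPM in LPS mice, with Clec4f as the largest share in every control mouse, Marco in LPS replicate 1 (58.8%) and Lyz2 in LPS replicates 2 and 3. LPS replicate 1 thus stood apart from the other LPS mice in this list as well, and without it 4 of these markers were lower. In this list Timd4 passed the filter on low counts through the control mice alone, so that count is given as a description. Sinusoidal endothelial markers had 2 of 7 higher and 2 lower, stellate cell markers 0 of 7 higher and 3 lower, and cholangiocyte markers 1 of 5 higher and 0 lower, while of the 5 T and NK cell markers only Gzma was tested, which passed the filter through the LPS mice alone and was higher in them. In the endothelial list Clec4g, called lower, passed through the control mice alone. Over all genes tested 13.3% were called higher and 13% lower, and counts in lists this short were not tested against those shares. The number of endothelial markers lower was 1 without control replicate 2, control replicate 4, LPS replicate 2 or LPS replicate 3 and with LPS replicates 2 and 3 summed, and without control replicate 1 there were 1 stellate cell and 2 cholangiocyte markers higher. At an unadjusted p below 0.05 in edgeR, 0 stellate cell markers were higher and 1 cholangiocyte marker was lower, and DESeq2 called 0 of each. The part of these cell types in the levels of the ER genes was not tested.

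Some counts could hold reads of neighbouring genes. In GENCODE M21, 13 of the 49 genes share exonic bases with a gene on the opposite strand and 3 with a gene of another symbol on the same strand. The largest share with any single neighbouring gene was 12.8% of the exonic length, in Ssr2. The next largest shares with a single neighbour were 10.3% in Hsp90b1, 8.16% in Sec61a1 and 8.05% in Eif2ak3. Where a gene had several neighbours, their shares were not added up. How the counting treated strand and reads that match several genes is not given in the sources used here, so the values of these genes carry that uncertainty.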

How the data were processed

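Liver RNA of 4 control and 3 LPS mice was analysed. The authors deposited raw counts per gene, without normalization. The submitters' processing notes name cutadapt 1.9.1, HISAT2 2.2.1, HTSeq 0.6.1 and DESeq2 1.34.0. They give the build as GRCm39. The annotation, strand setting and handling of reads that match several genes are not given in the sources used here.

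Counts were analysed in R 4.3.3 with edgeR 4.0.16: filterByExpr, TMM factors and the quasi-likelihood test of LPS against control with no covariate, adjusted by Benjamini-Hochberg over the 13683 genes tested. Genes were called at an adjusted p below 0.05. Standard errors were derived from the F statistic. Alternatives included DESeq2 1.42.0, RLE factors, total counts alone, other filters, a block for the replicate number, and fits without 1 mouse. The method was also run on simulated data, and the results of that run are not reported here.

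The 49 genes, the lists of related genes and the cell type marker lists were chosen with earlier results of these data known. Values in every mouse are given for Ern1, Xbp1, Atf6, Eif2ak3, Atf4, Ddit3 and Hspa5 and, in each role, for the 3 called genes with the largest absolute log2 fold change, the most abundant gene, and any gene called by only 1 of the tools or called with overlapping groups. In each related list, up to 2 called genes with the largest rise and up to 2 with the largest fall are named. Chac1 was given in every mouse after its values were seen. Protein sequences were not analysed here.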

Additional observations from a re-analysis of the deposited data

Results flagged for a closer look

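In 5 of the 49 genes, 1 of the 4 control mice lay far from the other 3, with a gap to the nearest mouse, divided by the whole range, above Dixon's critical value for 4 samples. Chance gives about 1 in 20 such groups, and 49 were tested. Groups of 3 LPS mice were not tested in this way.

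In Pdia4 the ratio of gap to range was 0.946, with control replicate 3 at 246 CPM and the others between 186 and 189 CPM. In Chac1 it was 0.927, with control replicate 3 at 5.01 CPM and the others between 0.354 and 0.694 CPM. For Ero1b the ratio was 0.86, with control replicate 3 at 105 CPM and the others between 55.4 and 62.4 CPM. Dnajc3 had a ratio of 0.852, with control replicate 3 at 279 CPM and the others between 173 and 189 CPM. The ratio for Ssr2 was 0.85, and there control replicate 1 was low, at 45.1 CPM, with the others between 53.0 and 54.4 CPM. So control replicate 3 was the high mouse in 4 of the 5 genes. Without it, Ero1b (log2 fold change 0.55, edgeR adjusted p = 0.00885) and Chac1 (2.06, edgeR adjusted p = 0.00931) were called higher, while Pdia4 and Dnajc3 were called higher in all 7 fits without 1 mouse, and the rise of Dnajc3 was between 0.70 and 0.96 in them.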

How the results depend on the processing

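The number of the 49 genes called higher was 30, and between 26 and 35 over the fits without 1 mouse. It was 32 with DESeq2, 31 with RLE factors, 27 with total counts alone, 27 with LPS replicates 2 and 3 summed and 13 past a log2 fold change of 1. All 30 were also called by DESeq2, and 25 of the 30 were called in all 7 fits without 1 mouse. Total counts alone moved the median of all genes to -0.129, from -0.0139, and the counts under that scaling are relative to this shift.

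The number called lower, 1, was 2 with DESeq2, total counts alone, at least 10 counts in every sample and mitochondrial genes left out, 0 with LPS replicates 2 and 3 summed and past the fold threshold, and between 0 and 2 without 1 mouse. For the UPR sensors and factors the number higher, 4, was 7 with no filter on low counts, 2 past the fold threshold and between 2 and 6 without 1 mouse, and the number lower, 1, was 0 with LPS replicates 2 and 3 summed and past the fold threshold and between 0 and 1 without 1 mouse. DESeq2 gave 6 higher. Past the fold threshold, 2 disulfide genes, 0 genes of ER-associated degradation and 0 translocon and COPII genes were higher. The translocon and COPII genes had 3 higher with total counts alone and with the replicate block, and between 3 and 5 without 1 mouse. They had 1 lower with DESeq2, total counts alone, at least 10 counts in every sample and mitochondrial genes left out, and between 0 and 1 without 1 mouse. Between 1 and 2 ATF4 targets were higher without 1 mouse. Of the related genes, between 34 and 60 were higher and between 3 and 6 lower without 1 mouse. By list, without 1 mouse, the number higher was between 5 and 9 for oligosaccharyltransferase, 5 and 8 for the other translocon and signal peptide genes, 3 and 7 for other disulfide enzymes, 3 and 6 for other chaperones, for other UPR factors and for other ATF4 targets, and the number lower was between 0 and 1 for other chaperones, 0 and 2 for other ER-associated degradation and 1 and 2 for other ATF4 targets. With total counts alone the oligosaccharyltransferase and the translocon lists each had 5 higher, other chaperones and other UPR factors each 3 higher, and other ER-associated degradation 2 lower. With at least 10 counts in every sample Chac1 was not tested, 2 neutrophil markers (8 before) and 0 T and NK cell markers (1 before) were higher, and 0 B and plasma cell markers and 1 endothelial marker (2 before in each) were lower, as the markers that lost their calls were not tested under that filter. With no filter on low counts 2 macrophage and monocyte markers (1 before) were lower.

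Signs turned only in uncalled genes. Atf4 had a log2 fold change of -0.0725 with total counts alone and -0.0623 with the replicate block, Sesn2 -0.0424 with total counts alone, Mbtps1 0.0524 with the replicate block, and Trib3 0.14 with the replicate block and 0.0534 with LPS replicates 2 and 3 summed. Without 1 mouse, Atf4 was between -0.067 and 0.11, Ppp1r15a between -0.0813 and 0.27, Mbtps1 between -0.17 and 0.12, Derl3 between -0.40 and 0.53, Sec61b between -0.21 and 0.20, Trib3 between -0.24 and 0.25 and Sesn2 between -0.0526 and 0.19. Where calls changed, the cause was not tested.

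The groups share the numbers 1 to 3 in their labels. Deviations from the group means of same-numbered mice correlated at 0.205, -0.0603 and 0.0801. Those of a control and an LPS mouse with different numbers correlated at between -0.151 and 0.107. With so few mice, these values cannot decide whether the numbers pair the mice. With the replicate block 28 of the 49 genes were higher and 1 lower, and Ssr1 (edgeR adjusted p = 0.104) and Sec23b (0.052) lost their calls. With SEs of 0.74, 0.42 and 0.59, small changes in Chac1, Trib3 and Derl3 could not be detected in these mice. These genes had between 5 and 104 counts in each mouse, and the part of depth in the SEs was not tested.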
